A study of Homo sapiens with 28 samples.

Results

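The comparison described here is a difference of differences: the change that Hep3B cells showed when grown as tumours in the egg instead of in culture, minus the same change in HuH7 cells. It used 14 of the 28 libraries of the study. These were 3 cultures and 4 tumours of Hep3B, and 3 cultures and 4 tumours of HuH7. Both are established human hepatocellular carcinoma lines; the other 14 libraries, of HepG2 and PLC/PRF/5, entered the composition scaling, the filter on low reads and the shared estimate of the spread, and their own changes are given once, near the end. Grafting was done at embryonic day 9 onto the chorioallantoic membrane, the vascular membrane under the shell, in fertilized eggs of white leghorn hens. The tumours grew for 9 days and were collected at embryonic day 18. The cells carried no added allele or drug in either condition. Each line is 1 established cell line and the host is a chick embryo, so a difference between the lines is a difference between 2 lines, not between 2 kinds of liver cancer. RNA was purified with one kit from cultures and with another from tumours, in both lines alike, so kit and condition cannot be told apart within a line.

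Adult hepatocytes secrete most plasma proteins, run the urea cycle and make cholesterol, fatty acids and bile acids. Carcinoma lines keep part of this program, together with fetal genes such as AFP. Nodal, BMP and TGF-beta ligands signal through SMAD proteins, and YAP acts with TEAD factors on genes of adhesion and matrix; both are known to influence whether liver cells look like hepatocytes or like bile duct cells.

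Messenger RNA was read with a targeted panel that amplifies 1 short stretch per human gene. Levels are given as CPM, reads of a gene relative to the total reads of the library multiplied by its composition factor (composition scaling). Scaled levels therefore do not sum to the same total in every library, and a scaled level is not a share of the reads. Levels before composition scaling are named as such. Changes are given on the log2(CPM + 1) scale, which understates changes of low genes. Of 18961 amplicons, 13100 had enough reads to be tested and 5861 did not. The 14 libraries held 6085750 to 15086465 reads. Replicate libraries correlated at 0.9952 or more in the cultures of either line, at 0.9231 to 0.9802 in Hep3B tumours and at 0.8711 to 0.9856 in HuH7 tumours. A difference was called at an adjusted p under 0.05. Whether replicates are separate cultures or eggs is not stated in the labels, and the p-values then cover the spread among these libraries, which may be technical. In bulk samples, fewer cells of a type and less RNA per cell cannot be told apart.

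Amplicons of 2 genes, AFP and CER1, that moved in opposite directions are shown because every level below rests on the reads of 1 such stretch. AFP is the fetal counterpart of albumin, and CER1 is a secreted antagonist of Nodal and BMP. Both lie within a coding exon, AFP at chr4:73452483-73452599 on the plus strand and CER1 at chr9:14720120-14720263 on the minus strand (GRCh38, placed by exact match to GENCODE 29 transcripts), and neither crosses an exon junction.
AFP: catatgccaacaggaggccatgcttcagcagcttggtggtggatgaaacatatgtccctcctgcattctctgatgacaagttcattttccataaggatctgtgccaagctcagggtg
CER1: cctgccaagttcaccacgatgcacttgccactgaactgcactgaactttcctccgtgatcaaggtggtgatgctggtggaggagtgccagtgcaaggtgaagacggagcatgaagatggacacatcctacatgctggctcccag

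The labels of the lines were checked first. All 19 genes of Hep3B alone were higher in Hep3B tumours, and all 22 genes of HuH7 alone were higher in HuH7 tumours. Genes that the cultures of one line lacked, and that all tumours of the other line held at 300 CPM or more, gave an upper bound on reads of the other line. In Hep3B tumours 1 to 4 it was 0.618, 1.06, 0.406 and 0.0721% of the mean HuH7 tumour, from 2 genes, and in the HuH7 tumours 0, 0, 0 and 0.0432% of the mean Hep3B tumour, also from 2 genes. With these shares subtracted, an alternative chosen after seeing the data, 1214 genes were higher and 1499 lower against the 1203 and 1458 given next.

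The lines responded differently at 2661 of 13100 genes (20.3%). The change was higher in Hep3B at 1203 genes (9.18%) and lower in Hep3B at 1458 genes (11.1%). Differences of at least 2-fold were found at 963 genes (7.35%) in the higher and 1250 (9.54%) in the lower direction. Within the lines, 24.6% of genes rose and 27.4% fell in Hep3B, and 23.6% rose and 19.8% fell in HuH7. Without composition scaling, from total reads alone, the split was 577 higher and 3275 lower, and the median difference over all genes moved from -0.0899 to -0.582, so directions below are relative to the bulk of genes. Among the genes with a higher change, 595 rose in Hep3B and were not called in HuH7, 238 fell in HuH7 and were not called in Hep3B, and 149 rose in both lines. Among those with a lower change, 549 rose in HuH7 and were not called in Hep3B, 474 fell in Hep3B and were not called in HuH7, and 111 rose in both.

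Movement in opposite directions, with all 3 tests called, was found at 417 genes. The 2 tests within the lines alone gave the same 417, so the test of the difference removed no gene. Of the 417, 170 genes (1.30%) rose in Hep3B and fell in HuH7, and 247 (1.89%) fell in Hep3B and rose in HuH7. The cultures and tumours did not overlap in either line for 157 of the 170 and for 186 of the 247. The classes were called on these same libraries, so this separation follows largely from the selection and is no separate support. Over all genes tested, called or not, and with each line taken alone, cultures and tumours did not overlap at 55.6% in Hep3B and 48.5% in HuH7. Across genes, which are not independent, the change from culture to tumour had a Spearman correlation with the GC content of the amplicon of 0.458 in Hep3B and 0.505 in HuH7, and with its length of -0.485 and -0.341. With these trends removed, 107 of the 170 and 162 of the 247 were still in their class. Under total reads alone, 65 of the 170 and 190 of the 247 were still in their class. The composition factors, where a lower one raises the levels, were 0.447 to 0.711 in Hep3B tumours and 0.776 to 1.36 in HuH7 tumours. They were 1.09 to 1.15 in Hep3B cultures and 1.19 to 1.23 in HuH7 cultures. In the scatter of the responses, the first class includes plasma proteins such as SERPINC1 and AHSG and metabolic enzymes such as ARG1. The second includes CER1 and LYPD1.

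**Figure D1:**
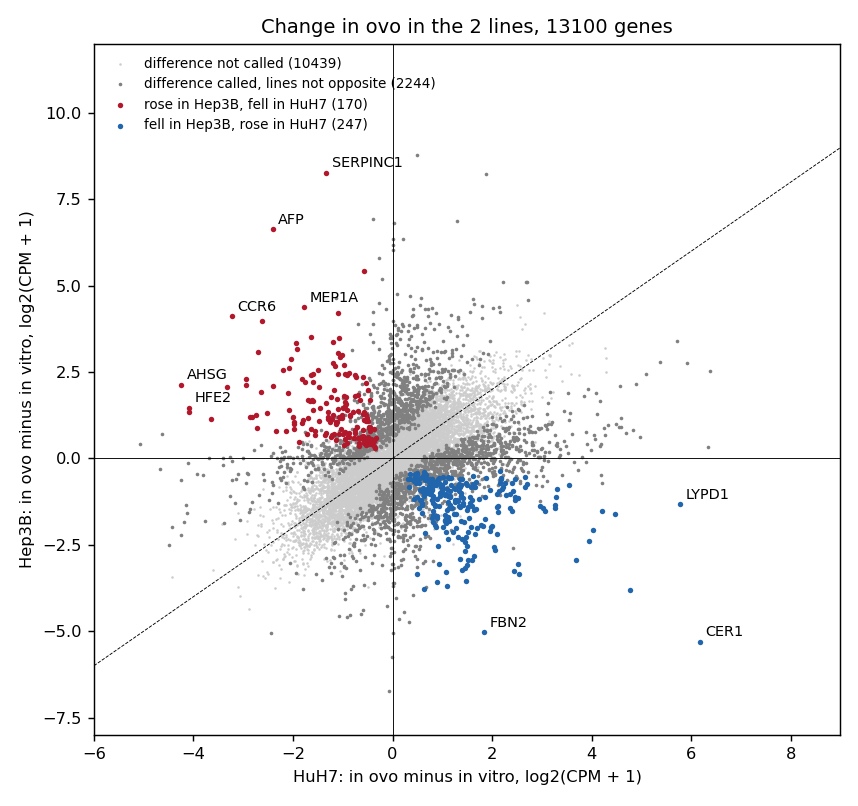
Change from culture to tumour in HuH7 (horizontal axis) and Hep3B (vertical axis), on the log2(CPM + 1) scale, 1 point per gene tested. Red points are the 170 genes that rose in Hep3B and fell in HuH7, blue points the 247 that did the reverse; the dashed line marks equal changes.

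AFP had 142, 152 and 155 CPM in Hep3B cultures and 13909, 16414, 12245 and 17794 CPM in Hep3B tumours. In HuH7 it had 1873, 1905 and 1856 CPM in cultures and 569, 258, 375 and 284 CPM in tumours. Every tumour lay above every culture in Hep3B and below every culture in HuH7, and the line with the higher AFP changed from HuH7 in culture to Hep3B in tumours. The log2 change was 6.63 in Hep3B and -2.40 in HuH7, a difference of 9.04 (SE 0.35, adjusted p = 1.82e-15).

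SERPINC1, which encodes antithrombin, the main inhibitor of thrombin, had 1.32, 1.09 and 1 CPM in Hep3B cultures and 514, 625, 628 and 928 CPM in Hep3B tumours. The HuH7 cultures had 3.74, 4.61 and 3.96 CPM and the HuH7 tumours 1.29, 0.538, 1.35 and 1.03 CPM. The HuH7 levels were low in both conditions, with tumours below all cultures, while the Hep3B tumours stood far above all other libraries. The difference was 9.60 (SE 0.32, adjusted p = 1.39e-16), the largest of the genes that rose in Hep3B and fell in HuH7.

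ARG1, the arginase of the urea cycle, had 10.8, 11.2 and 9.68 CPM in Hep3B cultures and 179.6, 149.8, 227 and 180.3 CPM in Hep3B tumours. HuH7 started at a like level, 13.6, 11.6 and 11 CPM, and its tumours had 1.54, 0.538, 1.69 and 0.857 CPM. The cultures of the 2 lines thus overlapped while their tumours did not, and the difference was 6.62 (SE 0.52, adjusted p = 4.52e-10). AHSG, the secreted inhibitor of mineral deposition fetuin-A, differed by 6.39 (SE 0.40, adjusted p = 1.25e-11). Its HuH7 cultures had 289, 289 and 289 CPM and its HuH7 tumours 27.8, 8.71, 10.6 and 15.6 CPM, against 19356, 22460.0, 19443 and 25965 CPM in Hep3B tumours.

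Other genes of this class were not plasma proteins. CCR6, the receptor of the chemokine CCL20, went from 5.8 ± 0.694 to 118 ± 16.3 CPM in Hep3B and from 44.6 ± 1.65 to 4.27 ± 2.41 CPM in HuH7 (mean ± SD, n = 3 cultures and 4 tumours, as for all such values below); its amplicon matches a second annotated gene. MEP1A, a meprin protease subunit, differed by 6.16, and DDC, the decarboxylase that makes dopamine and serotonin, by 5.31. HFE2, the hemojuvelin co-receptor that drives hepcidin, went from 9.41 ± 0.959 to 31.1 ± 18.1 CPM in Hep3B and from 20.2 ± 1.5 to 0.245 ± 0.0706 CPM in HuH7. PKLR, the liver pyruvate kinase, rose from 40.3 ± 4.34 to 1828 ± 538 CPM in Hep3B; its HuH7 cultures and tumours, at 4.35, 5.16 and 3.41 and 2.31, 2.37, 3.54 and 2.14 CPM, overlapped.

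**Figure D2:**
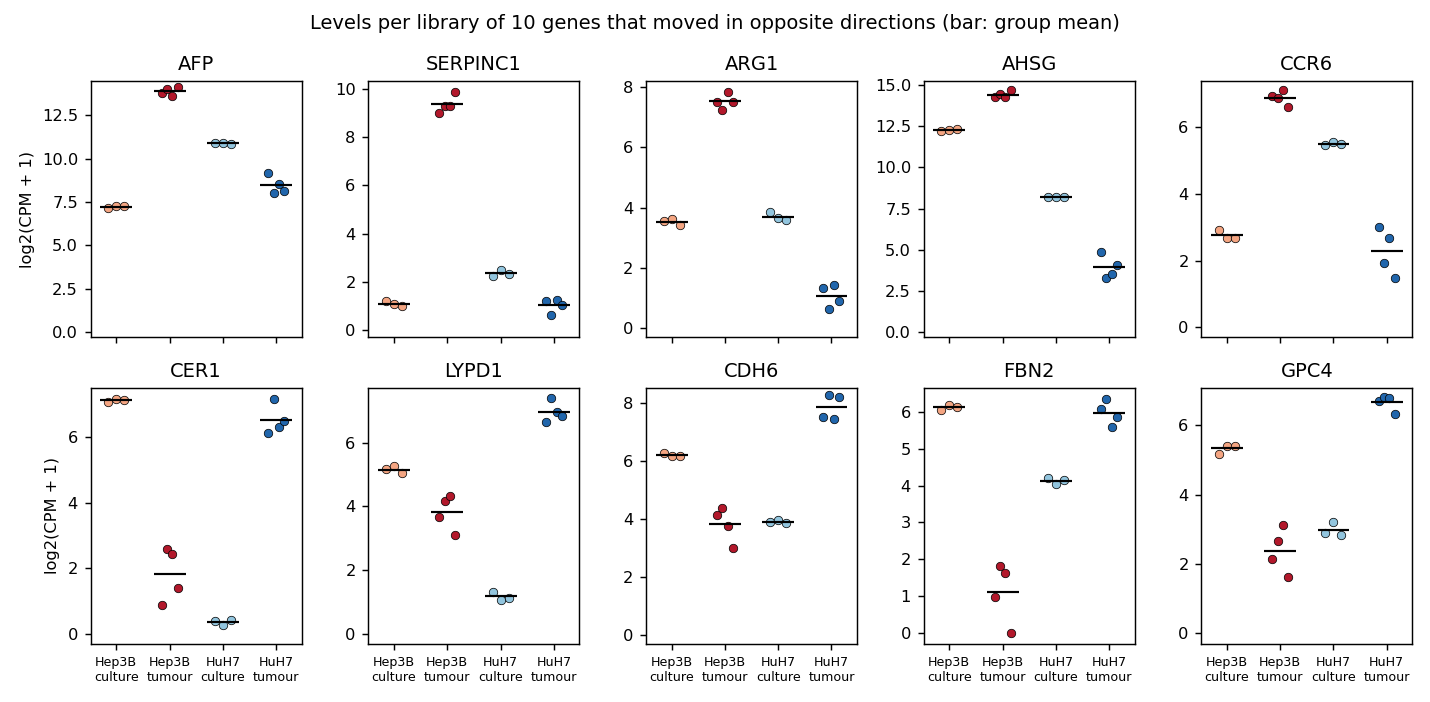
Levels in each library, as log2(CPM + 1), of 5 genes that rose in Hep3B and fell in HuH7 (top) and 5 that did the reverse (bottom). Points are libraries and bars are group means; in each gene the tumours of the 2 lines lie on opposite sides of their own cultures.

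Among the genes that fell in Hep3B and rose in HuH7, CER1 had the largest difference. It had 135, 144 and 139 CPM in Hep3B cultures and 0.852, 5.04, 4.4 and 1.62 CPM in Hep3B tumours. The HuH7 cultures had 0.304, 0.219 and 0.33 CPM, levels near that of 3 reads, and the HuH7 tumours had 69.1, 142, 79.1 and 90.3 CPM. The 2 lines exchanged places, with Hep3B cultures and HuH7 tumours at similar levels and the other groups near 0. The difference was -11.48 (SE 0.44, adjusted p = 1.82e-15).

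LYPD1, a membrane-anchored modulator of nicotinic receptors, differed by -7.11 (SE 0.41, adjusted p = 2.57e-12). Its HuH7 cultures, at 1.52, 1.1 and 1.21 CPM, lay below all its HuH7 tumours, at 98.6, 169, 123 and 114 CPM.

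Several other members of this class encode surface and matrix proteins. CDH6, a cadherin of the kidney and of bile duct precursors, went from 73 ± 2.78 to 14 ± 5.49 CPM in Hep3B and from 14 ± 0.686 to 239.6 ± 72.2 CPM in HuH7. FBN2, a microfibril protein, went from 68.8 ± 3.26 to 1.39 ± 1.13 CPM in Hep3B and from 16.6 ± 1.11 to 63 ± 14.2 CPM in HuH7, with 1 Hep3B tumour at 0. GPC4, a heparan sulphate proteoglycan, differed by -6.64, the chemokine receptor CXCR4 by -5.70 and the synaptic fusion protein SNAP25 by -5.72. SOCS2, a feedback inhibitor of cytokine and growth hormone receptors, differed by -6.11. PTHLH, the parathyroid hormone-related peptide, had 0.101, 0.219 and 0.22 CPM in HuH7 cultures, under the level of 3 reads, and 25.5, 32.6, 20.7 and 23.3 CPM in HuH7 tumours, while Hep3B fell from 9.79 ± 1.44 to 2.72 ± 1.25 CPM.

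The plasma protein list moved furthest towards Hep3B. Of 28 secreted hepatocyte proteins, all tested, 21 had a higher change in Hep3B and 0 a lower one, against 9.18% and 11.1% of all genes; 8 rose in Hep3B and fell in HuH7. The median change was 1.76 in Hep3B and -1.02 in HuH7, and the median difference was 3.78 against -0.0899 over all genes. The same shares of all genes, 9.18% higher and 11.1% lower, belong beside every list count of the difference below that used composition scaling. Beside counts under total reads alone belong 577 higher and 3275 lower of 13100 genes. Beside counts within a line belong 24.6% that rose and 27.4% that fell in Hep3B, and 23.6% and 19.8% in HuH7. TF, the iron carrier transferrin, went from 10231 ± 398 to 77726 ± 21301 CPM in Hep3B and from 5752 ± 112 to 1484 ± 597 CPM in HuH7 (4.93, SE 0.44, adjusted p = 5.99e-09). TTR, the thyroxine and retinol carrier transthyretin, went from 82.2 ± 1.93 to 962 ± 145 CPM in Hep3B and from 69 ± 4.8 to 30.5 ± 25.6 CPM in HuH7 (5.16, SE 0.66, adjusted p = 1.56e-06). APOB, the structural protein of very low density lipoprotein, differed by 4.06 (SE 0.43, adjusted p = 9.5e-08).

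Not every plasma protein rose in Hep3B. ALB had 79.7, 71.2 and 78.1 CPM in Hep3B cultures and 69.9, 40.5, 21.2 and 102 CPM in Hep3B tumours, which overlapped. In HuH7 it had 55.3, 60.2 and 61.1 CPM in cultures and 5.02, 8.18, 0.843 and 19.4 CPM in tumours, so its difference of 2.55 (SE 0.86, adjusted p = 0.0359) rested on the fall in HuH7. The ALB call was lost without any 1 of 10 of the 14 libraries, for example Hep3B tumour 4 (adjusted p = 0.081) or HuH7 tumour 3 (adjusted p = 0.065), and with edgeR (adjusted p = 0.0748), the 14 libraries alone (0.0639) and total reads alone (0.192). APOA1, the chief apolipoprotein of HDL, rose from 758 ± 19 to 16669 ± 6769.7 CPM in Hep3B, and its HuH7 change of 0.78 was not called. PGLYRP2, a secreted amidase that cleaves peptidoglycan, rose from 1.38 ± 0.128 to 1068 ± 259 CPM in Hep3B and had 1 ± 0.469 CPM in cultures and 1.83 ± 0.656 CPM in tumours of HuH7.

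**Figure D3:**
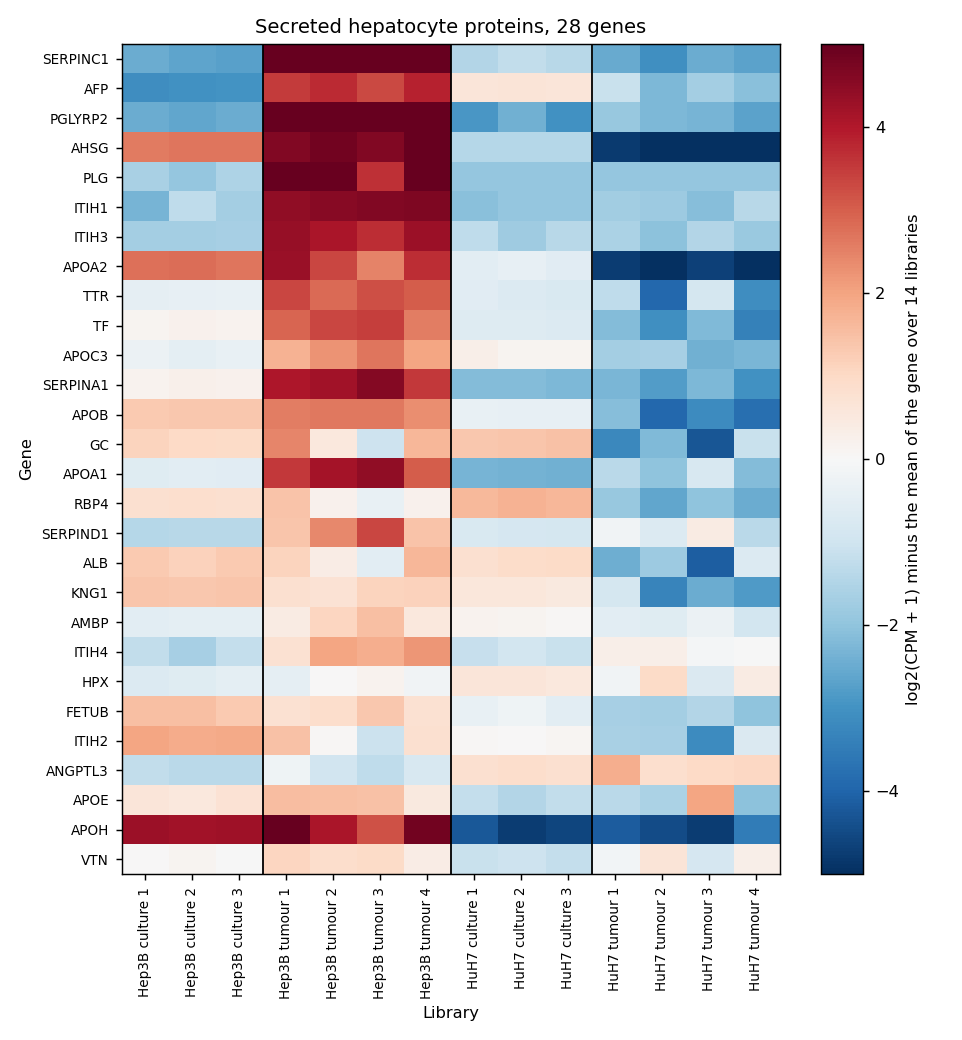
Levels of the 28 secreted hepatocyte proteins in the 14 libraries, as log2(CPM + 1) minus the mean of the gene, with colours limited to 5 units on either side. Genes are ordered by the difference of the responses; the upper rows are darkest red in the 4 Hep3B tumours.

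Clotting factors and complement followed the same order of the lines. Of 13 coagulation genes tested, 8 had a higher change in Hep3B and 0 a lower one, with a median difference of 2.24. F2, which encodes prothrombin, went from 368 ± 2.01 to 2329 ± 596 CPM in Hep3B and from 105 ± 2.66 to 24.8 ± 8.48 CPM in HuH7 (4.70, SE 0.32, adjusted p = 6.39e-11). The fibrinogen chain genes FGA and FGB and the cofactor gene F5 also rose in Hep3B and fell in HuH7. FGB stayed higher in HuH7 tumours, at 1264 ± 354 CPM, than in Hep3B tumours, at 197 ± 48.5 CPM. Of 17 complement genes, 7 had a higher and 1 a lower change, against 9.18% and 11.1% of all genes. CFB, C8G and MBL2 moved in opposite directions in the 2 lines, and the CFB amplicon matches a second annotated gene.

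Of 15 acute phase genes, 9 had a higher and 2 a lower change in Hep3B. All genes had 9.18% and 11.1%, so the lower count was near that of all genes. A2M, a broad protease inhibitor, went from 406 ± 3.71 to 1737 ± 272 CPM in Hep3B and from 441 ± 13.3 to 48 ± 28.2 CPM in HuH7 (5.41, SE 0.40, adjusted p = 1.76e-10). SOCS3, the feedback inhibitor of interleukin-6 signalling, moved the other way, from 3.63 ± 0.195 to 0.206 ± 0.249 CPM in Hep3B and from 2.27 ± 0.447 to 12.5 ± 4.08 CPM in HuH7 (-3.96, SE 0.36, adjusted p = 5.8e-09). STAT3, which transmits the same signal, was the other member with a lower change.

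Amino acid metabolism gave 11 of 16 members with a higher change and 0 with a lower one, with a median of 1.17 in Hep3B and -0.55 in HuH7. CPS1, which fixes ammonia for the urea cycle, increased from 6.1 ± 0.369 to 271 ± 110.0 CPM in Hep3B and had 1.07 ± 0.317 and 0.799 ± 0.393 CPM in HuH7 cultures and tumours. HAL, which degrades histidine, and GLUD1, the glutamate dehydrogenase, moved in opposite directions, with differences of 4.51 and 4.01. TAT, which degrades tyrosine, did so too, with a difference of 2.25.

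On the scaled levels, sterol synthesis differed mainly through HuH7. Of 24 cholesterol genes tested, 21 had a higher change in Hep3B and 0 a lower one; 20 fell in HuH7, against 19.8% of all genes, while in Hep3B 7 rose and 5 fell. The medians were -0.13 in Hep3B and -2.06 in HuH7. Under total reads alone, 15 of the 24 were higher and 0 lower, with a median difference of 1.31 against 1.98 on the scaled levels. HMGCS1, the cytosolic enzyme that condenses acetyl groups into HMG-CoA, had 1556, 1574 and 1526 CPM in HuH7 cultures and 312, 109.7, 132 and 142 CPM in HuH7 tumours. It fell in Hep3B as well, from 267 ± 14 to 132 ± 46.6 CPM, and the difference was 2.20 (SE 0.40, adjusted p = 0.000222). After composition scaling, FDPS, MVK and LSS, enzymes of the mevalonate and sterol steps, rose in Hep3B and fell in HuH7.

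Fatty acid synthesis followed with 11 of 18 members higher and 0 lower, and 6 of 18 higher when total reads alone set the scale. FASN, the fatty acid synthase, had 7105, 8017 and 7258 CPM in Hep3B cultures and 14380.0, 14207, 15191 and 11630.0 CPM in Hep3B tumours. In HuH7 it had 13323, 13189 and 12610.0 CPM in cultures and 4252, 1671, 1845 and 1153 CPM in tumours. On this scale the 2 conditions did not overlap in either line, and the difference was 3.61 (SE 0.52, adjusted p = 8.77e-06). Before composition scaling the Hep3B cultures and tumours overlapped in FASN, so its rise in Hep3B came with that scaling. MLXIPL, the carbohydrate-responsive factor ChREBP, differed by 4.03 and went from 228 ± 9.51 to 532 ± 112 CPM in Hep3B and from 46.4 ± 3.82 to 6.05 ± 2.85 CPM in HuH7.

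NRF2 targets, genes of the response to oxidants, had 11 of 22 members with a higher and 1 with a lower change. In HuH7, 16 of the 22 fell, against 19.8% of all genes. NQO1, a quinone reductase, had 309.8, 303 and 311 CPM in HuH7 cultures and 17.7, 8.39, 3.71 and 7.63 CPM in HuH7 tumours. Its Hep3B levels overlapped between conditions, at 4.35, 4.77 and 5.9 CPM in cultures and 16.2, 6.55, 2.85 and 7.4 CPM in tumours, and the difference was 5.50 (SE 0.55, adjusted p = 2.89e-08). The tumours of the 2 lines had NQO1 levels that overlapped. AKR1C1 and AKR1C2, near-identical aldo-keto reductases whose reads may be shared, differed by 5.09 and 3.42.

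Hepatocyte transcription factors moved less than the genes above. Of 23 tested, 6 had a higher and 3 a lower change, against 9.18% and 11.1% of all genes. The lower count was thus near that of all genes. The median difference of 0.47 became -0.06 under total reads alone. HNF4A had 2288 ± 493 CPM in Hep3B tumours and 1082 ± 250.1 CPM in HuH7 tumours, and its difference of 1.08 (SE 0.43, adjusted p = 0.0846) was not called; it was called with DESeq2 (adjusted p = 0.0426), in the 14 libraries alone (0.0335) and with trends in GC content and amplicon length removed (0.0419). The nuclear receptor NR0B2, a repressor of bile acid synthesis, differed by 3.19, and CREB3L3, a liver factor of the endoplasmic reticulum, by 3.88.

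**Figure D4:**
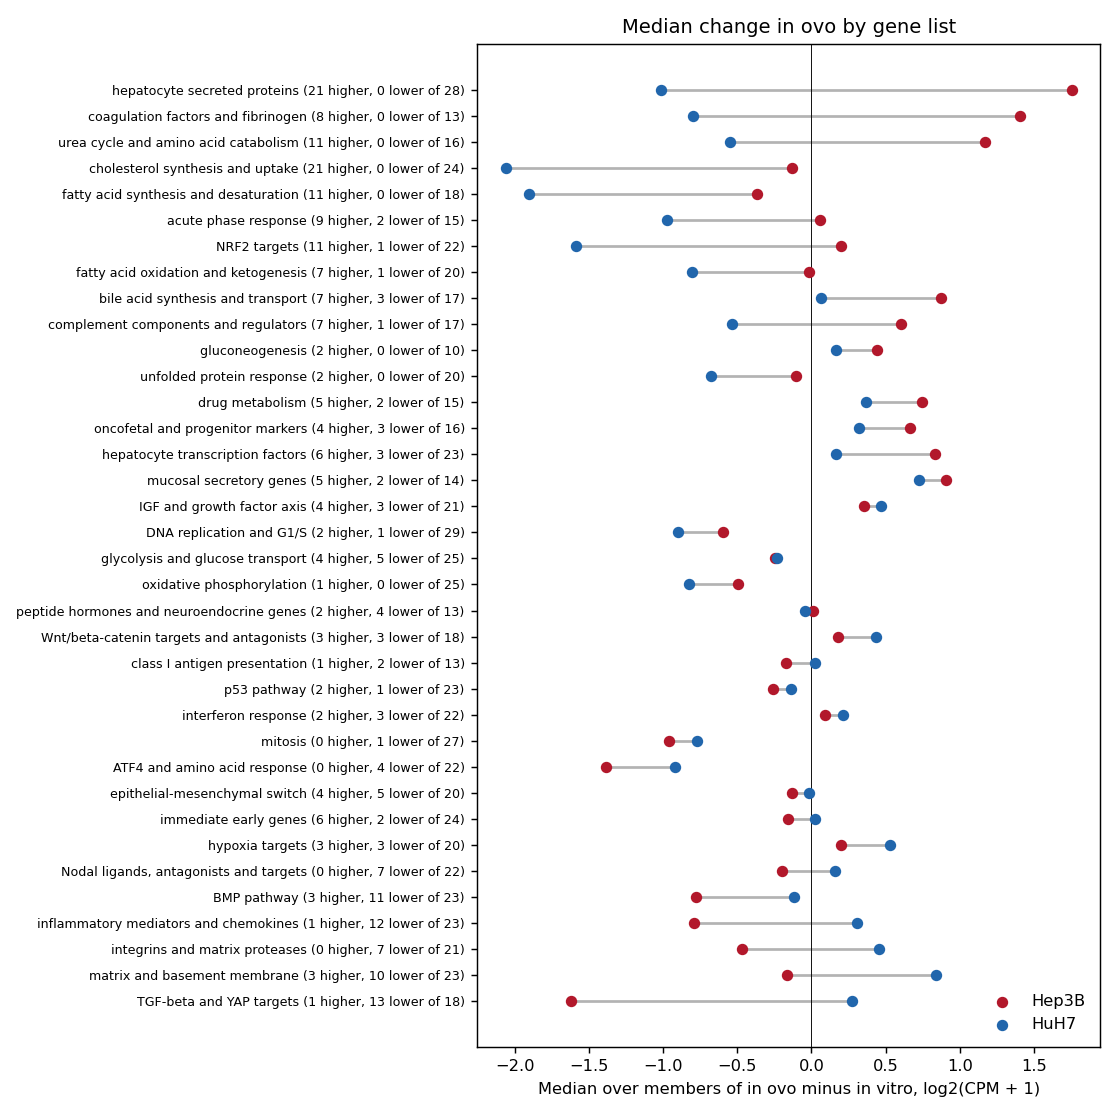
Median change from culture to tumour over the tested members of each of 36 gene lists, on the log2(CPM + 1) scale, in Hep3B (red) and HuH7 (blue). Row labels give the number of members with a higher or lower change in Hep3B; secreted proteins are at the top and TGF-beta and YAP targets at the bottom.

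TGF-beta and YAP targets moved furthest the other way. Of 18 members, 13 had a lower change in Hep3B and 1 a higher one; the median was -1.62 in Hep3B and 0.27 in HuH7. CTGF, a matricellular protein, had 417, 420.4 and 414 CPM in Hep3B cultures and 31.8, 45.3, 30.3 and 16.9 CPM in Hep3B tumours. HuH7 cultures had 2079, 2089 and 2035 CPM and HuH7 tumours 1382, 994, 1914 and 683 CPM. CTGF fell in both lines, more so in Hep3B (-2.95, SE 0.43, adjusted p = 1.3e-05). THBS1, a matrix glycoprotein that activates TGF-beta, and ANKRD1, a muscle ankyrin-repeat protein, differed by -3.49 and -3.79.

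Nodal and BMP genes contained the gene with the largest difference of all, CER1. Of 22 Nodal genes tested, 7 had a lower and 0 a higher change in Hep3B, and 12 were lower under total reads alone. LEFTY1, an antagonist of Nodal, rose in both lines. It had 1.06, 3 and 1.89 CPM in Hep3B cultures and 18.1, 33.2, 30.0 and 6.01 CPM in Hep3B tumours, and 3.34, 2.96 and 3.08 CPM in HuH7 cultures and 209.6, 342, 319 and 164 CPM in HuH7 tumours (-3.16, SE 0.58, adjusted p = 0.000225). The LEFTY1 amplicon matches a second annotated gene, so its reads cannot be assigned to LEFTY1 alone. INHBB, an activin subunit, went from 93.9 ± 13.3 to 3.42 ± 2.19 CPM in Hep3B and from 94.7 ± 10.9 to 113 ± 55.1 CPM in HuH7.

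Of 23 BMP genes, 11 had a lower and 3 a higher change, against 11.1% and 9.18% of all genes. The higher count was thus near that of all genes. The ligands BMP6 and BMP8A and the receptor BMPR2 fell in Hep3B and rose in HuH7, with differences of -3.09, -2.54 and -1.96. The BMP8A amplicon was not placed by exact match to a transcript, so the source of its reads is uncertain. ATOH8, a BMP-induced factor, fell from 83 ± 3.79 to 2.72 ± 1.68 CPM in Hep3B and from 31.8 ± 2.58 to 17.4 ± 7.16 CPM in HuH7. HAMP, the iron hormone hepcidin that BMP6 induces, had a higher change in Hep3B, 2.35, and was at 7.01 ± 5.65 CPM in Hep3B tumours against 73.5 ± 59.8 CPM in HuH7 tumours. The HAMP call was lost without Hep3B tumour 4 (adjusted p = 0.0575), Hep3B culture 3 (0.0626), HuH7 tumour 2 (0.0588), HuH7 tumour 4 (0.056) or HuH7 culture 1 (0.0516), and without both tumours numbered 4 (0.115). It was also lost with edgeR (adjusted p = 0.0519), limma-voom (0.112), the 14 libraries alone (0.0974) and the share of the other line subtracted (0.0524).

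Chemokines and inflammatory mediators had 12 of 23 members lower and 1 higher, with medians of -0.79 in Hep3B and 0.31 in HuH7. CXCL8, the neutrophil attractant interleukin-8, had 33.6, 30.8 and 33.1 CPM in Hep3B cultures and 0.532, 0.504, 0.259 and 0.462 CPM in Hep3B tumours. HuH7 had 6.68, 7.46 and 5.71 CPM in cultures and 3.47, 3.12, 3.2 and 3 CPM in tumours. It fell in both lines (-3.69, SE 0.27, adjusted p = 2.01e-10). CXCL6, a related attractant, fell in Hep3B and rose in HuH7, from 43.1 ± 2.13 to 2.75 ± 1.62 CPM in Hep3B and from 6.93 ± 0.587 to 18.1 ± 9.74 CPM in HuH7; CXCL1, CXCL2 and CXCL3 are near-identical copies and are uncertain.

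Matrix and adhesion genes leaned to HuH7. In the matrix list 10 of 23 had a lower and 3 a higher change, against 11.1% and 9.18% of all genes. The higher count was thus near that of all genes. In the integrin and protease list 7 of 21 were lower and 0 higher (14 lower under total reads alone). COL18A1, a basement membrane collagen, went from 278 ± 25.7 to 109 ± 172 CPM in Hep3B and from 146 ± 14 to 1742 ± 2366 CPM in HuH7 (-5.01, SE 1.49, adjusted p = 0.0173); without both tumours numbered 3 the difference was -3.79 (adjusted p = 0.0633). HSPG2, which encodes perlecan, fell in Hep3B and rose in HuH7, while NID1, which links laminin to collagen, did the reverse, with differences of -2.46 and 2.52. ITGB4, the integrin of hemidesmosomes, differed by -3.49, and the cadherin CDH2 by -3.94.

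COL1A1, the fibrillar collagen of fibroblasts, was at 59.2 ± 28.5 CPM in HuH7 tumours and 0.957 ± 1.09 CPM in Hep3B tumours. Of 10 fibroblast markers tested, COL1A1 and COL1A2, the partner chain, had a lower change in Hep3B, and PDGFRB, a growth factor receptor, and LUM, a matrix proteoglycan, a higher one. LUM fell in both lines, from 3.59 ± 0.987 to 0.343 ± 0.285 CPM in Hep3B and from 200.2 ± 4.16 to 26 ± 13.2 CPM in HuH7, and the sign of its difference (1.29) turned with edgeR (-0.18), DESeq2 (-0.21) and voom (-0.20). Of all 13 markers, 5 passed 10 CPM in HuH7 tumours, 3 in HuH7 cultures and 3 in either Hep3B group. Summed levels, in CPM before composition scaling, ran from 1375 to 1959 CPM in HuH7 tumours and from 1497 to 1578 CPM in HuH7 cultures, and 4 and 5 members were at 0. Their part in the matrix result was not tested.

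Bile duct markers moved with the same split. Of 10 cholangiocyte markers tested, 6 had a lower change in Hep3B and 0 a higher one. After scaling, 4 of the 10 fell and 2 rose in Hep3B, against 27.4% and 24.6% of all genes. In HuH7, 5 of the 10 rose and 0 fell, against 23.6% and 19.8% of all genes. Before scaling, the sums over all 12 cholangiocyte genes were 2152 to 2203 CPM in Hep3B cultures and 737 to 906 CPM in Hep3B tumours. They were 2508 to 2639 CPM in HuH7 cultures and 3635 to 4952 CPM in HuH7 tumours. Composition factors were 1.09 to 1.15 in Hep3B cultures and 0.447 to 0.711 in Hep3B tumours, so scaling makes the Hep3B fall smaller. KRT19 was a large part, with unscaled means of 1181 CPM in Hep3B cultures, 284.5 CPM in Hep3B tumours and 2439 CPM in HuH7 tumours. SOX9 had higher unscaled means in tumours of both lines, 216 to 344 CPM in Hep3B and 315 to 643 CPM in HuH7. KRT19, a keratin of bile ducts, went from 1057 ± 63.1 to 548 ± 389.9 CPM in Hep3B and from 1349.6 ± 88.4 to 2628 ± 1549.8 CPM in HuH7, and its call was lost without Hep3B tumour 4 (adjusted p = 0.054) and in the 14 libraries alone (0.0893). SCTR, the secretin receptor of bile ducts, rose from 0.777 ± 0.388 to 153 ± 66.4 CPM in HuH7 and had 3.12 ± 0.619 and 5.94 ± 5.21 CPM in Hep3B (adjusted p of the difference = 3.46e-07). The 16 hepatocyte markers summed to 113164 to 136547 CPM in Hep3B tumours against 4907 to 6891 CPM in HuH7 tumours, with 13 of 15 tested members higher and CYP2E1 lower. These sums are in CPM before composition scaling.

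Few proliferation genes differed between the responses. Of 27 mitosis genes, 0 had a higher and 1 a lower change, against 9.18% and 11.1% of all genes. With total reads alone 10 were lower, against 3275 of all 13100 genes. Within the lines, 18 fell in Hep3B and 14 in HuH7, against 27.4% and 19.8% of all genes. MKI67 went from 86 ± 3.76 to 60.6 ± 23.6 CPM in Hep3B and from 132 ± 1.33 to 76.1 ± 59.1 CPM in HuH7, and its difference of 0.75 (SE 0.91, adjusted p = 0.645) was not called. Of 29 DNA replication genes 2 were higher and 1 lower, and of 25 oxidative phosphorylation genes 1 was higher. A difference that was not called does not show that the lines responded alike.

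Immediate early genes had members called in either direction. Of 24 tested, 6 had a higher and 2 a lower change, against 9.18% and 11.1% of all genes, so the lower count was not above that of all genes. EGR1, an ERK-induced factor, and DUSP6, a phosphatase that dampens ERK, rose in Hep3B and fell in HuH7, with differences of 3.14 and 3.55. JUNB, an AP-1 subunit, did the reverse (-4.05, SE 0.83, adjusted p = 0.000752). Under total reads alone the list had 5 higher and 9 lower, against 577 and 3275 of all 13100 genes.

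Fetal genes did not move as 1 group. Of 16 oncofetal and progenitor genes, 4 had a higher and 3 a lower change, against 9.18% and 11.1% of all genes. GPC3, a glypican of fetal liver, rose in Hep3B and fell in HuH7 (1.89, SE 0.44, adjusted p = 0.00227; 1.16 and not called under total reads alone, adjusted p = 0.0619), while the surface protein PROM1 did the reverse (-2.91, SE 0.40, adjusted p = 5.56e-06). IGF2, the fetal growth factor, had 281057 ± 79743 CPM in Hep3B tumours and 20137 ± 11774 CPM in HuH7 tumours, and its difference of 0.59 (SE 0.77, adjusted p = 0.67) was not called. Its amplicon matches a second annotated gene.

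Some genes changed the same way in both lines but by different amounts, or moved in 1 line alone. AGR2, a disulphide isomerase of mucus-secreting cells, was under the level of 3 reads in Hep3B cultures and at 150.1, 113, 104 and 143 CPM in Hep3B tumours, against 1.63 ± 0.275 and 5.61 ± 1.71 CPM in HuH7. The mucin MUC5B was at 0 in every culture and in every HuH7 tumour and at 100.4, 81.8, 30.5 and 68 CPM in Hep3B tumours; its call with limma was not made by edgeR. NPNT, a ligand of integrin alpha-8, rose from 35 ± 1.18 to 212 ± 54.6 CPM in Hep3B and from 7.98 ± 0.338 to 835 ± 515 CPM in HuH7 (-3.85, SE 0.55, adjusted p = 8.88e-06). CGA, the shared alpha subunit of glycoprotein hormones, fell from 240.5 ± 9.3 to 1.32 ± 0.541 CPM in Hep3B and was at 0.211 ± 0.0972 and 0.161 ± 0.205 CPM in HuH7.

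The order of the 2 lines turned over at 273 genes (2.08%), each called between the lines in cultures and in tumours with opposite signs. At 118 genes (0.901%) HuH7 was higher in culture and Hep3B in tumours, and at 155 (1.18%) the reverse. The lines differed at 4452 genes in culture (34.0%) and at 6405 in tumours (48.9%), with the same sign at 3144. AFP, SERPINC1 and CCR6 turned towards Hep3B; CER1, LYPD1, FBN2 and GPC4 turned towards HuH7.

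**Figure D5:**
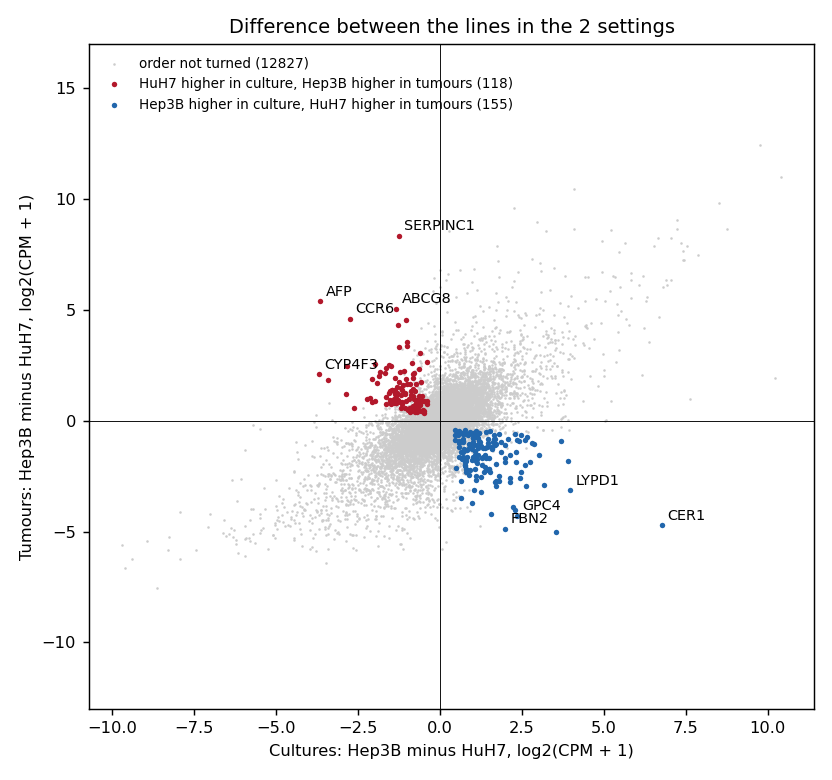
Difference between the lines, Hep3B minus HuH7, in cultures (horizontal axis) and tumours (vertical axis), on the log2(CPM + 1) scale. Red and blue points are the 118 and 155 genes whose order turned; the remaining genes tested are grey.

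The genes of the opposite classes were also read in HepG2 and PLC/PRF/5, whose own changes did not enter the choice of these genes. Their libraries did enter the composition scaling, the filter on low reads and the shared estimate of the spread. This reading is therefore not fully independent. With the Hep3B and HuH7 libraries alone, 127 of the 170 and 161 of the 247 were still in their class. Of the 170 genes that rose in Hep3B and fell in HuH7, 41 rose (24.1%) and 39 fell (22.9%) in HepG2, where 1588 of all 13100 genes (12.1%) rose and 1697 fell. In PLC/PRF/5, 44 of them rose (25.9%) and 21 fell (12.4%), against 11.9% and 5.61% of all genes. Of the 247 that fell in Hep3B and rose in HuH7, 19 rose (7.69%) and 66 fell (26.7%) in HepG2, so more of them moved as in Hep3B than as in HuH7. In PLC/PRF/5, 33 of the 247 rose (13.4%) and 19 fell (7.69%).

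Promoters of genes that moved together are shown with short motifs, as a description of letters only. RefSeq promoters (GRCh38.p14) were found for 125 of the 170 genes and 194 of the 247, and the 250 bases before the start were searched on both strands for 18 patterns. The 2 patterns named next were picked after the shares were seen. The HNF1 half-site GTTAAT was in 9.6% of promoters of the first class, 3.61% of the second, 3.67% of the genes tested and 6.22% of all promoters. The HNF4 pattern CAAAGTNCA was in 4.8%, 0%, 0.662% and 0.912%. The other patterns were a full and an inner HNF1 palindrome and an NF-kB site, given by name, and CAAAGTCCA for HNF4, TTGCNNAA and TTGCGCAA for CEBP, TCACNCCAC for SREBP, GGAATG and CATTCCA for TEAD, GTCTAGAC for SMAD, AATNCACA for FOXH1, TGANTCA for AP-1, TGTTTAC for FOXA, TGATGNAA for ATF4, TATAAA for the TATA box and TGANNNNGC for NRF2. Some of them contain one another, and a match is not a bound site. The AFP window lies at chr4:73435971-73436220 and the AHSG window at chr3:186612810-186613059, both on the plus strand, with the HNF1 half-site of AFP and the HNF4 pattern of AHSG in capitals.
AFP promoter: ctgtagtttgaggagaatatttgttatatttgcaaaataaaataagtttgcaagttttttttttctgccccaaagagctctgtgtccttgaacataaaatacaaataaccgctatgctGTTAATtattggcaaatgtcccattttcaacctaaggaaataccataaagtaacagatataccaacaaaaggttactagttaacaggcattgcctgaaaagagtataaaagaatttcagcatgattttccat
AHSG promoter: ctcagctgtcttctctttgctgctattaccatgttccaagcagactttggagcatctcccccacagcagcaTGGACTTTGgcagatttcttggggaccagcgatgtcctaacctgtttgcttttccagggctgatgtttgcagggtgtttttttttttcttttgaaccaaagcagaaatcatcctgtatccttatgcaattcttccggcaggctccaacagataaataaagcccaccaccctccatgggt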

How the data were processed

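Targeted amplicon libraries of Hep3B and HuH7 cultures and tumours were compared, with groups taken from the sample labels. The deposited values are a signal that the authors scaled to 500000 per library, per the file's own column sums; the submitters' processing notes name hg38, and for the aligner and counter the tool is not given in the sources used here. Whole reads were recovered from the deposited values (at least 99.9684% of values within 0.01 of a whole number in these 14 libraries), scaled by TMM over all genes with edgeR 4.0.16 and filtered with filterByExpr by group (minimum 10 reads). Values of log2(CPM + 1) were fitted with limma 3.58.1 in R 4.3.3 (trended variance, 8 groups, 28 libraries, 20 residual degrees of freedom), with Benjamini-Hochberg adjustment over 13100 genes. TMM was first run on the filtered genes and changed to all genes after its counts were seen; both are given below. DESeq2 1.42.0, edgeR and other settings served as alternatives, and the fit was tested on simulated data, which held changes of known size; at the spread estimated from these libraries it missed most of them, and a gene that was not called is not shown to be unchanged. Counts over lists are descriptions. Members and lists were chosen with earlier results of these data known. Named genes were 26 key genes, the 12 largest differences in each opposite class and the 5 largest among genes called alike or turned (above 10 CPM on average and, for the first 2 kinds, with no overlap between conditions), and per list up to 4 called members plus those called in opposite directions. STAT3, CYP2E1, CXCL1 and CXCL2 stand outside the rule and were named after their values were seen. Some members are not reported here, although counts over lists and classes hold them. Same-numbered cultures and tumours did not deviate together (correlations of -0.0955 to 0.102), and tumours of the 2 lines did so for numbers 3 and 4 (0.526 and 0.618) but not 1 and 2 (-0.0755 and -0.0882). Not every pair exceeded 0.1, so replicate numbers were not treated as pairs.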

Additional observations from a re-analysis of the deposited data

Results flagged for a closer look

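The responses of the 2 lines differed by a test of the difference itself at 1203 genes with a higher and 1458 with a lower change in Hep3B, including 170 that rose in Hep3B and fell in HuH7 and 247 that did the reverse. Among 23 genes of the opposite classes, 46 groups of 4 tumours were examined for a library far from the other 3, and 3 had one; chance gives about 1 in 20 groups. MEP1A was at 3.73 CPM in HuH7 tumour 1 against 0.686 to 1.18 CPM in the others. DDC was at 32.0 CPM in the same tumour against 16.97 to 19.4 CPM, and GPC1, a heparan sulphate proteoglycan, was at 80.1 CPM in HuH7 tumour 3 against 12.4 to 20.3 CPM. Amplicons of olfactory receptor genes, which liver cells are not known to use, were read more often in tumours: 19.8% of the 392 amplicons had reads in Hep3B tumours on average (12.2 to 34.7%) against 3.57 to 3.83% in cultures, and 26.2% in HuH7 tumours (20.9 to 31.4%) against 5.87 to 7.91%. The part of this signal in the low levels given above was not tested.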

How the results depend on the processing

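With total reads alone as the scale, the counts were 577 higher and 3275 lower, 93 genes that rose in Hep3B and fell in HuH7 and 523 that did the reverse, and 64 and 292 whose order turned to Hep3B and to HuH7; no other setting moved these 6 counts by over 1.5 times. TMM over the filtered genes, the scaling used first, gave 1225, 1442, 166, 242, 123 and 154. Leaving out each library in turn gave 978 to 1425 higher, 1262 to 1928 lower, 127 to 186 and 196 to 279 in the opposite classes, and 84 to 140 and 127 to 188 turned. The replicate block gave 1317, 1557, 179, 248, 132 and 170, edgeR 934, 1009, 153, 209, 109 and 137, and DESeq2 1183, 1196, 187, 232, 141 and 151. Removing trends with GC content and amplicon length gave 220 and 355 genes in the opposite classes, against 170 and 247. Across genes, the difference had a Spearman correlation of 0.0402 with GC content and -0.254 with amplicon length, where the change within each line had larger ones. Of 192 named genes, 168 had a value and an adjusted p in all 32 alternatives, and 130 of these kept their direction and call; of the other 24, 15 kept them wherever tested. Without both tumours numbered 3 the counts were 1324, 1621, 182, 312, 131 and 196, and without both numbered 4 they were 1087, 1341, 145, 223, 103 and 149. The sign turned for RFX6 (-0.49 with edgeR, -0.023 with DESeq2), ITGB8 (1.35 and 1.76) and LUM (-0.18, -0.21, and -0.20 with voom); the cause was not tested. Levels under that of 3 reads, 0.257 to 0.777 scaled CPM per library, limit statements on low genes. Subtraction of the other line, TMM over the filtered genes and leaving out the tumours numbered 4 were chosen after seeing the data.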
